A study of Mus musculus with 6 samples.

Results

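The genes described here belong to the major histocompatibility complex (MHC) and to the interferon response, and were measured in the embryonic mouse cortex with and without the histone deacetylase genes Hdac1 and Hdac2. The list names 43 symbols, drawn up with the cKO against WT values of this same table known. Each symbol was taken from its row with the highest mean normalized count, so the members were chosen by name and, among rows, by that mean. Of the 43 symbols, 28 have a row among the 12041 symbols of the table: 16 of 21 of the antigen presentation genes and 12 of 22 of the interferon genes. H2-K1, Tap1, Tapbp, Psme2, Cd74, Irf1, Irf2, Irf7, Ifih1, Ddx58, Ifit1, Oasl2, Ifnar2, Jak2 and Tyk2 have no row in the table used here and are not analysed here.

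The RNA came from C57BL/6 cortex of embryonic day 12.5, with 3 wild type libraries (WT) and 3 from a conditional knockout of both deacetylase genes (cKO). What drives the recombinase, which exons it removes, the litters, and whether a group holds separate embryos were not given in the sources used here. All p-values therefore rest on the spread among libraries, part of which may be technical. The libraries carry the column names HC-1, HC-8 and HC-10, read as WT, and HM-5, HM-13 and HM-16, read as cKO, and values below follow that order.

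MHC class I molecules show peptides from inside the cell to T cells and natural killer cells. A heavy chain pairs with the light chain beta-2-microglobulin, and peptides cut by the proteasome, or by its interferon-inducible form, reach the pair through the Tap transporter. Class II molecules show peptides of engulfed material and are usually made by specialised antigen-presenting cells. Interferons act through paired receptor chains, Jak kinases and Stat and Irf factors to raise class I genes together with antiviral genes such as Isg15 and Bst2. Class I and class II levels are known to be low in the early embryonic brain.

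Hdac1 FPKM (fragment counts adjusted for transcript length and depth) was 212, 197 and 193 in the WT libraries and 45.5, 61.0 and 47.4 in cKO. Hdac2 was at 134, 216 and 272 FPKM across the WT libraries and 37.6, 61.7 and 47.5 across the cKO libraries. Both fell without overlap between the groups, by 1.96 and 2.03 on the log2 scale (limma on log2(FPKM + 1), Benjamini-Hochberg adjusted p = 0.000307 and 0.00441). Reads recovered from the table ran from 9712556 to 11922665 per library. The ribosomal RNA precursor Rn45s held 29.7% of the recovered reads of HM-13 and between 0.506% and 2.48% in the other 5 libraries, so HM-13 stands apart. With HM-13 left out 7 members were called higher and 1 lower, against 13 and 1 with all libraries, since 5 genes low in WT then miss the filter on low values and Isg15 lost its call. With the tested genes held fixed, an alternative added after the data had been seen, the counts without HM-13 were 12 and 1. Of 10 cortex markers 9 have a row, and their summed FPKM was 967 to 1068 in WT and 989 to 1121 in cKO.

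Among members called higher, the largest rises were those of 4 class I heavy chain genes, the peptide transporter gene Tap2 and a class II gene. Those on the interferon side rose by smaller ratios. H2-D1, H2-Q4, H2-Q5, H2-Q7, Tap2 and the class II gene H2-Ab1 rose between 2.54-fold and 12.2-fold in mean FPKM, and the light chain B2m rose 1.40-fold. The 12.2-fold ratio is that of H2-Q5, which GENCODE annotates as a polymorphic pseudogene. On the interferon side Bst2, Isg15, Jak1, Ifngr1 and Ifngr2 rose between 1.37-fold and 1.90-fold. The class I heavy chain gene H2-M5 fell to 0.322 of its WT level. Of the 24 members with at least 1 FPKM in at least 3 libraries, 13 were called higher at an adjusted p under 0.05, 1 lower and 10 neither, where 9.62% of all 9359 genes tested were called higher, 8.39% lower and 18% either way. The list was made with this contrast in view, so these counts describe the members and support nothing further.

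The filter matters for 5 of these genes: H2-Q5, H2-Q7, Tap2, Psmb8 and H2-Ab1 reached 1 FPKM in cKO libraries alone and could be tested only because they were high there. Without the filter 13 of all 28 members were called higher and 1 lower, against 7.61% and 6.06% of the 12041 symbols. All 3 cKO values lay above all 3 WT values for 16 of 28 members and below for 1, where 18.1% and 17% of all symbols did so. A ratio of at least 2 was seen for 6 of the 24 tested members (H2-D1, H2-Q4, H2-Q5, H2-Q7, Tap2 and H2-Ab1) and for 3.53% of the genes tested. The median log2 fold change was 0.44 over the 28 members and below 0.01 in size over all symbols. The authors' deposited table gives an FDR for 21 members, 11 of them under 0.05 and higher in cKO and 0 lower. At that threshold 11.5% and 9.43% of the symbols with an FDR in the authors' deposited table were higher and lower. H2-M5 has no FDR there and so is not among the 21. The authors' deposited log2 fold change for it is -0.997, with a deposited p-value of 0.000118.

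**Figure D1:**
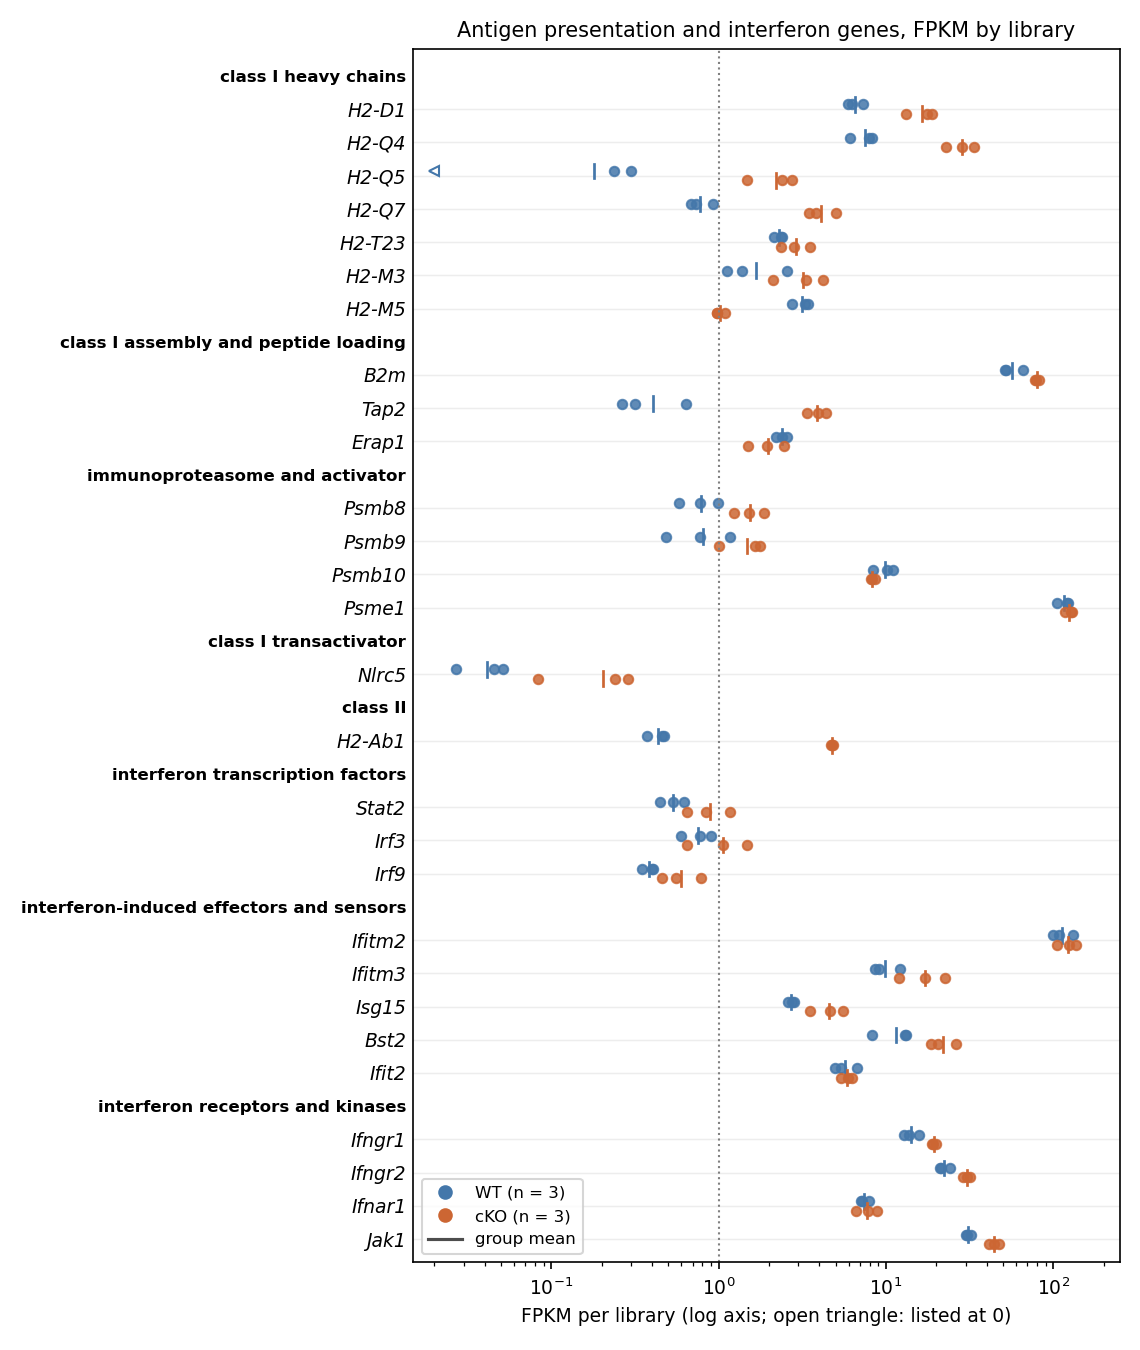
FPKM of each of the 28 members in each library, on a log axis, with WT in blue and cKO in orange, vertical ticks for group means, a dotted line at 1 FPKM and an open triangle for a value listed at 0. H2-Q5, H2-Q7, Tap2 and H2-Ab1 sit left of 1 FPKM in every WT library and right of it in every cKO library, H2-M5 moves the other way, and the points of Ifitm2, Ifit2 and Ifnar1 overlap.

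The stretch of 250 bases before the start of each gene shows what the promoters of these genes share and where they part. RefSeq promoters on GRCm38.p6 were found for 24 of the 28 members, 12 on each side. On both strands 5 short motifs were searched: the interferon-stimulated response element core GAAANNGAAA, its 1-base-shorter form GAANNGAAA (added after the class I promoters had been seen), the Stat element TTCNNNGAA, and the X2 box TGACG and Y box CCAAT, pieces of the module through which class I and class II promoters are driven. The longer and shorter response elements can overlap each other. Printed 5′ to 3′ with matches in capitals are 3 of the 4 class I heavy chain genes that rose (H2-Q5 is not shown), the light chain, the class I gene that fell, and the 2 interferon-induced members that rose, on chr17:35262844-35263093 (+), chr17:35379367-35379616 (+), chr17:35438905-35439154 (+), chr2:122147437-122147686 (+), chr17:36989534-36989783 (-), chr8:71537473-71537722 (-) and chr4:156200819-156201068 (-) in this order.
H2-D1: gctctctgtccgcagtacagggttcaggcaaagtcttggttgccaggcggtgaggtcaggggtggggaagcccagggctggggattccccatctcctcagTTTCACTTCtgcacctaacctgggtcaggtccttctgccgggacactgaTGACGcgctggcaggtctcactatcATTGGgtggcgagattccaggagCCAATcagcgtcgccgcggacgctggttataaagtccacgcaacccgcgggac
H2-Q4: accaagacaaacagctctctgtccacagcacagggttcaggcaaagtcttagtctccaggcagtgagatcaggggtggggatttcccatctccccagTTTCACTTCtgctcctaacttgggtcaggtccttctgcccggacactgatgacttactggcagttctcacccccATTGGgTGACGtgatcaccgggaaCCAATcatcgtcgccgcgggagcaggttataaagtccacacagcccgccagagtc
H2-Q7: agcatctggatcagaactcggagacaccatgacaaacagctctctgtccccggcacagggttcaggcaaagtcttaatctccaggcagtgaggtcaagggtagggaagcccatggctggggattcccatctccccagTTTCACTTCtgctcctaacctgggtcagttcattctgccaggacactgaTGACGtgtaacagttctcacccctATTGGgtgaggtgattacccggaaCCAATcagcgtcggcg
B2m: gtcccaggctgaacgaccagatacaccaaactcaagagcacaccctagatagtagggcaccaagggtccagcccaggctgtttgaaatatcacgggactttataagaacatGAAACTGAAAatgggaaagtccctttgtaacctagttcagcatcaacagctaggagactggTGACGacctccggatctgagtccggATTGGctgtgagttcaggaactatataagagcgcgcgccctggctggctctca
H2-M5: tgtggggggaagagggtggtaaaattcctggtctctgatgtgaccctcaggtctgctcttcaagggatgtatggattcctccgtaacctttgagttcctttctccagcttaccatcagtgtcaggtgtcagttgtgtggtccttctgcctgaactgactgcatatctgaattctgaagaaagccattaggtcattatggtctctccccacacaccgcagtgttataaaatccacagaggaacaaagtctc
Bst2: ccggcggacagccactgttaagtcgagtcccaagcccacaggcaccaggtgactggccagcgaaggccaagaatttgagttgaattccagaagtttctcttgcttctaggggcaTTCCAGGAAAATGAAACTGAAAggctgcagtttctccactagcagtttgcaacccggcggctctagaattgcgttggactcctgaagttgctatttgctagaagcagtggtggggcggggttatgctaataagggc
Isg15: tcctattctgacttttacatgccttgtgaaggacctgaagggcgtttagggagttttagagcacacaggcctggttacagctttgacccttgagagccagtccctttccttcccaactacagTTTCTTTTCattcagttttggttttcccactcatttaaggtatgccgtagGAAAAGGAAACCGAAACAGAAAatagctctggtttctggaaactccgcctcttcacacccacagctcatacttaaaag

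H2-D1, H2-Q4 and H2-Q7 each hold the same 9 bases TTTCACTTC, the short element on the other strand, upstream of 1 X2 box and a pair of Y boxes. In H2-D1 it covers bases -150 to -142 from the RefSeq start, in H2-Q4 -153 to -145 and in H2-Q7 -113 to -105. The order of the other matches differs. In H2-D1 and H2-Q7 the X2 box lies before both Y boxes, and in H2-Q4 it lies between them, at -73 to -69. B2m holds GAAACTGAAA at -139 to -130, followed by 1 X2 box and 1 Y box. The H2-M5 window holds 0 matches to any of the 5 motifs. Bst2 has 2 overlapping full elements beside a Stat element and Isg15 has 3, and neither has an X2 or Y box in the window. H2-M3, which did not pass the test, also holds a short element, an X2 box and Y boxes, with a Stat element besides.

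Over the 12 antigen presentation promoters, the full response element matched in 2, the short form in 4, the Stat element in 2, the Y box in 7 and the X2 box in 6. Over the 12 interferon-side promoters the same motifs matched in 4, 2, 2, 6 and 2. Among all 32851 RefSeq promoter windows of the same length, 2.98% held the full element, 6.31% the short form, 7.02% the Stat element, 33.8% the Y box and 17.8% the X2 box. A match is a string of letters and no measured binding, and the RefSeq start lies 434 bases from that of the transcript named in the table for Psmb9, 414 for Irf9, 405 for Psmb8, 364 for H2-D1 and 285 for Erap1.

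Of the 7 class I heavy chains tested 4 rose and 1 fell. H2-D1, a classical heavy chain on chr17:35262730-35267499 (GRCm38), was at 7.27, 6.28 and 5.95 FPKM across the WT libraries and 17.5, 13.2 and 18.8 across the cKO libraries. Each cKO library lay above each WT library, with HM-13 the lowest of the cKO libraries. The rise was 2.54-fold (log2 fold change 1.21, SE 0.14, adjusted p = 0.00299). H2-Q4, a heavy chain of the Qa region at chr17:35379617-35385290, was at 8.28, 7.97 and 6.12 FPKM across the WT libraries and 28.5, 22.8 and 33.7 across the cKO libraries. Its groups stood further apart, 3.80-fold in mean FPKM (log2 fold change 1.79, SE 0.16, adjusted p = 0.0012), and the recovered reads behind it ran from 117 to 638 per library.

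H2-Q5 and H2-Q7 were close to silent in WT. H2-Q7, which encodes a Qa-2 antigen, had 0.73, 0.921 and 0.683 FPKM across the WT libraries and 5.04, 3.46 and 3.85 across the cKO libraries (log2 fold change 1.52, SE 0.14, adjusted p = 0.00147). H2-Q5 had 0.301, 0 and 0.238 FPKM in WT against 2.40, 1.47 and 2.73 FPKM in cKO, from 0 to 34 reads per library (log2 fold change 1.43, SE 0.18, adjusted p = 0.00414). Neither gene had overlapping groups, and both also passed without the filter (adjusted p = 0.00158 and 0.00355). The transcripts named in these 2 rows are annotated in GENCODE as retained introns of 4209 and 1156 bases, so the rows need not stand for the coding messages. H2-Q5 as a gene is annotated as a polymorphic pseudogene.

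Near-identical copies make the split among class I genes uncertain. Of the 50-base stretches of each named transcript, 14.3% of H2-D1, 24.2% of H2-Q4, 35.4% of H2-Q5, 28.4% of H2-Q7 and 28.8% of H2-T23 also occur in transcripts of other genes, and the authors' counting of reads with several matches was not given in the sources used here. Some of these stretches lie in genes outside the 7 heavy chain rows, and the named transcripts differ in length, so a sum of FPKM over the 7 rows also depends on how such reads were assigned. That sum was 24.9, 21.7 and 19.5 FPKM across the WT libraries and 58.9, 48.9 and 67.1 across the cKO libraries, a ratio of 2.65 without overlap. Use of strand in the counting was not given in the sources used here, and reads of genes that overlap on opposite strands may then be mixed. H2-Q4 lies over the antisense gene Gm11131, H2-T23 over A930015D03Rik, and Tap2 and Psmb8 over Gm20496. Among protein-coding genes on the opposite strand, B2m overlaps Patl2, Psmb9 Tap1, Erap1 Cast, Psme1 Emc9, Irf3 Bcl2l12 and Jak1 Raver2, and Irf9 overlaps Rnf31 on its own strand.

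The other 3 heavy chains gave 1 fall and 0 rises. H2-M5, a nonclassical heavy chain gene at chr17:36984061-36989537, had 3.42, 2.75 and 3.29 FPKM across the WT libraries and 0.983, 1.09 and 0.973 across the cKO libraries. All 3 cKO libraries lay near 1 FPKM and below every WT library, a fall by 1.04 on the log2 scale (SE 0.11, adjusted p = 0.00252). The recovered reads behind these values ran from 11 to 45 per library. H2-T23, which encodes the Qa-1 molecule read by natural killer cell receptors, had 2.36, 2.38 and 2.14 FPKM across the WT libraries and 2.35, 3.53 and 2.81 across the cKO libraries, and its groups overlapped (log2 fold change 0.23, 95% interval -0.09 to 0.55, adjusted p = 0.276). H2-M3, known for presenting formylated peptides, had 2.56, 1.38 and 1.12 FPKM against 2.11, 3.34 and 4.19 FPKM, with HC-1 above HM-5 (log2 fold change 0.66, interval 0.08 to 1.24, adjusted p = 0.108).

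Among the genes that assemble and load class I, the transporter changed most. Tap2, a subunit of the peptide transporter at chr17:34203527-34216321, had 0.643, 0.315 and 0.264 FPKM across the WT libraries and 3.91, 3.36 and 4.38 across the cKO libraries. Its groups did not overlap, and 7 to 115 reads per library lie behind these values (9.53-fold in mean FPKM, log2 fold change 1.8, SE 0.15, adjusted p = 0.00103, and 0.000928 without the filter). B2m, the light chain shared by all class I molecules, on chr2:122147686-122153083, had 66.2, 52.6 and 51.3 FPKM across the WT libraries and 78.9, 77.7 and 81.9 across the cKO libraries. It was already above every heavy chain with a row in WT, and its rise of 0.49 on the log2 scale (SE 0.10, adjusted p = 0.0167) lost its call on leaving out HC-10, HM-5 or HM-16 (adjusted p up to 0.0672). Erap1, which trims peptides in the endoplasmic reticulum, had 2.57, 2.19 and 2.41 FPKM against 1.94, 1.5 and 2.46 FPKM, and did not pass (log2 fold change -0.20, adjusted p = 0.36).

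The summed heavy chain members and the light chain therefore moved by unlike amounts. The sum leaves out H2-K1, which has no row, and H2-T24, which is not a member (1.14-fold in mean FPKM). It includes H2-Q5 and H2-Q7, whose named transcripts are retained introns, and depends on how shared reads were assigned. The summed heavy chain FPKM divided by B2m FPKM was 0.376, 0.412 and 0.381 in WT and 0.746, 0.630 and 0.820 in cKO. FPKM is scaled to transcript length, so the quotient compares levels per length. It was 1.88 times as high in cKO on average, and the groups did not overlap.

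**Figure D2:**
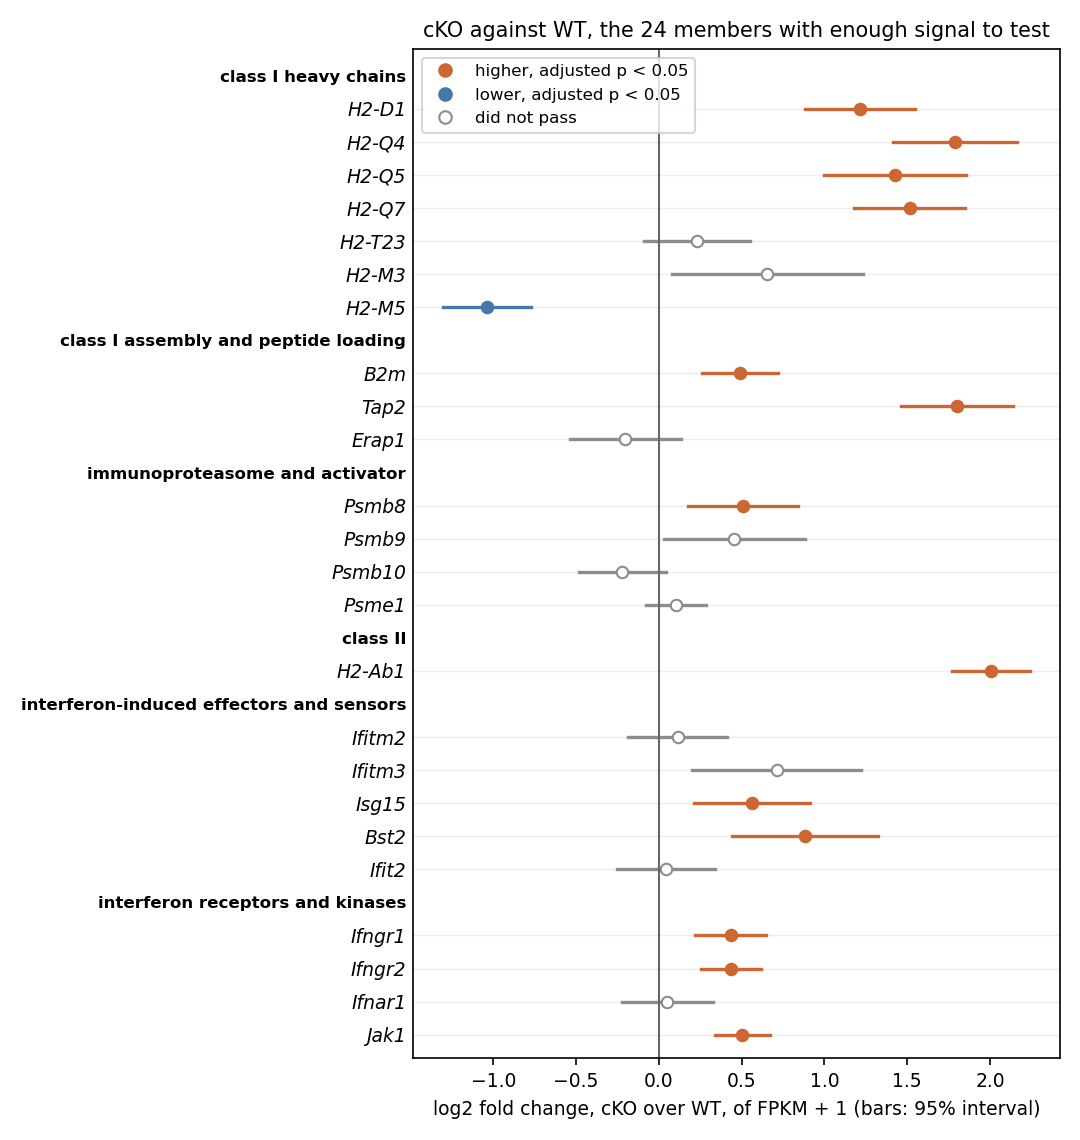
Log2 fold change of FPKM + 1, cKO over WT, for the 24 members tested, with 95% intervals as bars, orange where called higher, blue where called lower and open where not called. H2-Ab1 (2.01), Tap2 (1.8) and H2-Q4 (1.79) lie farthest right, H2-M5 (-1.04) alone lies on the left among called members, and the called interferon-side members lie between 0.43 and 0.88.

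The proteasome genes gave 1 call. Psmb8, an interferon-inducible catalytic subunit, had 0.582, 0.77 and 0.998 FPKM across the WT libraries and 1.52, 1.23 and 1.86 across the cKO libraries, from 8 to 24 reads (log2 fold change 0.51, SE 0.14, adjusted p = 0.0461). With the tested genes held fixed, Psmb8 kept its call in 1 of the 6 fits that left out a library, the one without HM-13 (adjusted p up to 0.139 in the others), and voom on the recovered reads did not call it (adjusted p = 0.0646). Psmb9, its partner subunit next door on chr17:34181987-34187764, had 0.772, 0.487 and 1.16 FPKM against 1.65, 1.01 and 1.76 FPKM and overlapped in 1 pair of libraries (log2 fold change 0.46, adjusted p = 0.125). Psmb10, the third inducible subunit, was at 8.40 to 11.1 FPKM across the WT libraries and 8.14 to 8.59 across the cKO libraries (log2 fold change -0.22, adjusted p = 0.216). Psme1, a subunit of the proteasome activator, was at 105.4 to 122.6 FPKM across the WT libraries and 116.9 to 130.4 across the cKO libraries (log2 fold change 0.10, interval -0.08 to 0.29, adjusted p = 0.384).

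Nlrc5, the transactivator that drives class I promoters, stayed too low to test. It had 0.0512, 0.0452 and 0.0270 FPKM across the WT libraries and 0.242, 0.0836 and 0.287 across the cKO libraries, from 2 to 21 reads per library, a ratio of 4.96 in mean FPKM. The 3 cKO values lay above the 3 WT values, and in the fit without a filter the adjusted p was 0.138. The authors' deposited table gives Nlrc5 a p-value of 0.00359 and no FDR.

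H2-Ab1, the beta chain of a class II molecule at chr17:34257689-34269419, took nearly the same value in the 3 libraries of each group. It had 0.373, 0.46 and 0.472 FPKM across the WT libraries and 4.67, 4.77 and 4.85 across the cKO libraries, from 5 to 63 reads per library. The rise was 10.9-fold in mean FPKM (log2 fold change 2.01, SE 0.10, adjusted p = 0.000307, and 0.000254 without the filter). Of 12 further class II genes 2 have a row. Ifi30, a lysosomal thiol reductase that prepares antigens for class II, rose from 28.5, 23.3 and 21.4 FPKM to 38.0, 33.7 and 44.3 FPKM (1.58-fold, adjusted p = 0.0166), a call lost on leaving out HC-10, HM-5 or HM-16 (adjusted p up to 0.0658). H2-DMa, a subunit of the class II peptide editor, was at 1.97 ± 0.22 FPKM across the WT libraries and 2.60 ± 0.12 FPKM in cKO (SD, n = 3) and did not pass (adjusted p = 0.122).

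The interferon factors of the list were all low. Stat2, which joins Irf9 in the factor that type I interferons activate, had 0.445, 0.625 and 0.534 FPKM across the WT libraries and 0.644, 1.16 and 0.842 across the cKO libraries. Irf9 had 0.349, 0.401 and 0.406 FPKM against 0.556, 0.456 and 0.782 FPKM, and Irf3, which acts downstream of viral sensors, had 0.772, 0.896 and 0.6 FPKM against 0.646, 1.06 and 1.47 FPKM. Stat2 and Irf9 did not overlap between groups and Irf3 did. None of the 3 reached 1 FPKM in 3 libraries, and without the filter limma gave adjusted p = 0.158 for Stat2, 0.216 for Irf9 and 0.413 for Irf3. A further row of Irf9 for another transcript had 0.190, 0.402 and 0.521 FPKM against 0.377, 0.198 and 0.445 FPKM and overlapped.

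Of the 5 interferon-induced effectors with a row, 2 rose. Bst2, the tetherin that holds virus particles at the cell surface, on chr8:71534255-71537456, had 13, 8.30 and 13.1 FPKM across the WT libraries and 20.5, 18.6 and 26.2 across the cKO libraries. All cKO libraries lay above all WT libraries (1.90-fold, log2 fold change 0.88, SE 0.19, adjusted p = 0.0197), and the call was lost on leaving out HM-5 or HM-16 (adjusted p up to 0.071). Isg15, a ubiquitin-like modifier on chr4:156199424-156200818, had 2.82, 2.59 and 2.73 FPKM across the WT libraries and 3.51, 4.61 and 5.52 across the cKO libraries. Its groups did not overlap either (1.67-fold, log2 fold change 0.56, SE 0.15, adjusted p = 0.0395), but 22 to 44 reads lie behind the values and the call held in 1 of 6 fits that left out a library, the one without HM-5. With voom on the recovered reads Isg15 had an adjusted p of 0.0831, and the authors' deposited table gives it an FDR of 0.184.

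The other 3 effectors did not pass. Ifitm3, which blocks virus entry, had 12.1, 8.6 and 9.13 FPKM across the WT libraries and 12, 17.2 and 22.5 across the cKO libraries, with HM-5 just under HC-1 (log2 fold change 0.71, SE 0.22, adjusted p = 0.0605). It passed without HM-5 (adjusted p = 0.0388), and the authors' deposited table gives it an FDR of 0.0178. Ifitm2, its neighbour, was at 99.1 to 132.0 FPKM across the WT libraries and 105.5 to 136.4 across the cKO libraries (log2 fold change 0.11, adjusted p = 0.57). Of its 50-base stretches 48.5% also occur in other genes. Ifit2, an RNA-binding antiviral protein, was at 4.95 to 6.75 FPKM across the WT libraries and 5.42 to 6.23 across the cKO libraries (log2 fold change 0.04, interval -0.26 to 0.34, adjusted p = 0.848).

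Both chains of the interferon gamma receptor rose by the same ratio. Ifngr1, the ligand-binding chain, had 15.9, 13.8 and 12.8 FPKM across the WT libraries and 19.2, 18.9 and 20.1 across the cKO libraries (1.37-fold, log2 fold change 0.43, SE 0.09, adjusted p = 0.0196). Ifngr2, the signalling chain, had 24.1, 21.5 and 21.1 FPKM against 30.5, 28.9 and 31.7 FPKM (1.37-fold, log2 fold change 0.43, SE 0.08, adjusted p = 0.0116). Neither overlapped. Ifngr1 lost its call in 4 of 6 fits without a library (HC-8, HC-10, HM-5 or HM-16, adjusted p up to 0.0775) and Ifngr2 in 2 (HM-5 or HM-16, 0.0568 at most).

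Jak1, a kinase used by both interferon receptors, had 32.4, 29.9 and 30.6 FPKM across the WT libraries and 44.2, 41.5 and 47.4 across the cKO libraries. It was the interferon-side member with the smallest p (1.43-fold, log2 fold change 0.50, SE 0.07, adjusted p = 0.00519) and held its call in all 6 fits that left out a library. Ifnar1, a chain of the type I interferon receptor, was at 7.09 to 7.90 FPKM across the WT libraries and 6.64 to 8.83 across the cKO libraries and did not pass (log2 fold change 0.05, interval -0.22 to 0.33, adjusted p = 0.794). A further row of Ifnar1 for another transcript, under 1 FPKM and not tested, had 0.282, 0.249 and 0.216 FPKM across the WT libraries and 0.510, 0.368 and 0.382 across the cKO libraries, without overlap. Scaled by library totals, which count Rn45s, Jak1, Ifngr1, Ifngr2, B2m, Psmb8 and Isg15 lost their calls (adjusted p = 0.404 for Jak1) and Bst2 was the 1 interferon-side member called.

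Set side by side, 8 of 15 tested antigen presentation members were called higher and 1 lower, and 5 of 9 tested interferon-side members were called higher and 0 lower. The shares over all genes tested were 9.62% higher and 8.39% lower. All 3 cKO values lay above the WT values for 9 of 16 and 7 of 12 members with a row, and below for 1 and 0. Over all symbols 18.1% lay above and 17% below in this way. Whether the sides differ was not tested, since the members were listed with these values known. Members called higher ran from 1.40-fold to 12.2-fold on the antigen presentation side and from 1.37-fold to 1.90-fold on the interferon side, so calls were not confined to the MHC genes. The 6 tested members with a ratio of at least 2 were antigen presentation genes. Of these, H2-Q5, H2-Q7, Tap2 and H2-Ab1 were under 1 FPKM in every WT library and could be tested only through cKO. The split also depends on which genes were listed. Usp18, Mx2 and Oas1b, interferon-induced genes outside the members, had ratios of 2.80, 2.58 and 2.07. Mx2 and Oas1b were under 1 FPKM and not tested with the filter. H2-D1, H2-Q4, H2-Q5, H2-Q7, H2-M5, Tap2 and H2-Ab1 were the 7 members called under each of 8 other settings and without each library, with the tested genes held fixed. Holding the genes fixed was chosen after the data had been seen, and the genes were filtered with all 6 libraries. With the filter applied anew, H2-D1, H2-Q4 and H2-M5 were called in all 6 fits that left out a library. H2-Q5, H2-Q7, Tap2 and H2-Ab1 then could not be tested in the 3 fits without a cKO library.

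A longer list of 67 further interferon-induced genes was also drawn up with earlier results known. Of these 20 have a row, 12 were tested, 4 rose, 0 fell and 8 did not pass, where 9.62% of all genes tested rose and 8.39% fell, and the median log2 fold change was 0.36 over those tested. Usp18, which strips Isg15 from proteins and dampens type I receptor signalling, had 0.502, 0.532 and 0.689 FPKM across the WT libraries and 1.55, 1.18 and 2.09 across the cKO libraries, a 2.80-fold rise (log2 fold change 0.71, adjusted p = 0.0179). It too passed the filter through the cKO libraries. Eif2ak2, the kinase activated by double-stranded RNA, had 11.8, 12.5 and 11.9 FPKM against 18.7, 15.6 and 18.4 FPKM (1.45-fold, adjusted p = 0.0122).

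Lgals3bp, a secreted galectin-binding glycoprotein, rose 1.98-fold from 1.45 ± 0.28 FPKM (adjusted p = 0.0244) and Irgm1, an immunity-related GTPase, 1.90-fold from 1.8 ± 0.10 FPKM (adjusted p = 0.0379; SD, n = 3). All 4 kept higher values in cKO in every fit, but each lost its call in at least 1 fit that left out a library, Irgm1 in 5 of 6. Without the filter Mx2 and Oas1b, antiviral genes under 1 FPKM, were called as well (2.58-fold and 2.07-fold, adjusted p = 0.0257 and 0.0447). Groups did not overlap for 11 of the 20, each higher in cKO, where 18.1% of all symbols were higher without overlap. Of 10 interferon genes searched for 0 have a row, so the ligands themselves are not analysed here.

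**Figure D3:**
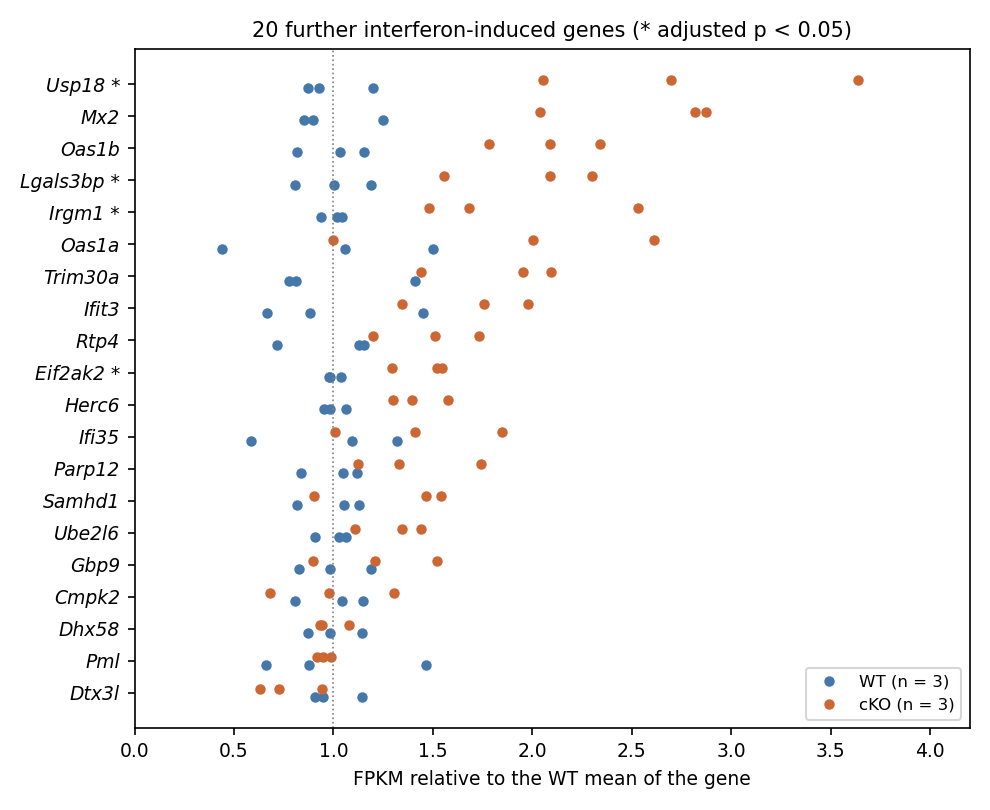
FPKM in each library divided by the WT mean of the gene, for the 20 further interferon-induced genes with a row, WT in blue and cKO in orange, with an asterisk where called at an adjusted p under 0.05. Usp18, Mx2, Oas1b, Lgals3bp and Irgm1 separate the groups most. Cmpk2, Dhx58, Gbp9, Samhd1 and Oas1a have cKO values on both sides of the WT mean, and those of Pml and Dtx3l lie below it.

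Class I genes that are not members, and the factors that bind class I promoters, gave 1 and 1 call, both lower, where 18% of all genes tested were called either way. Of 20 other class I and class I-like genes 3 have a row, 0 rose and 1 fell: Cd1d1, which presents lipids, went from 7.28, 5.92 and 5.55 FPKM to 4.08, 3.46 and 3.91 FPKM (log2 fold change -0.58, adjusted p = 0.0198). Of 9 chaperones and peptidases of the class I pathway 7 were tested and 0 passed with limma or with voom, with 2 at an unadjusted p under 0.05 (Lnpep, adjusted p = 0.103, and Thop1, 0.124, both peptidases). Of 12 promoter factors 5 have a row, and of the 3 tested 0 rose and Atf1, a factor of the family that binds the X2 box, fell from 37.3 ± 1.56 to 27.5 ± 2.76 FPKM (SD, n = 3; adjusted p = 0.0158).

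Members and other genes of the MHC were also set side by side by position. Between the outer ends of H2-K1 and H2-M3 (chr17:33996017-37274484, 3.278 Mb) 11 members were tested, and 7 rose and 1 fell. Of 57 other genes tested in the same interval 4 rose and 7 fell, and their median log2 fold change was -0.02. These counts are 7.02% and 12.3%, against 9.62% and 8.39% of all genes tested. The members were listed with their values known. Among them H2-Q5, H2-Q7, Tap2, Psmb8 and H2-Ab1 could be tested only because they were high in cKO. The counts of members and of other genes are therefore not alike, and whether they differ was not tested. Neu1, a lysosomal sialidase, rose 1.74-fold and Ier3, an immediate early gene, 2.05-fold (adjusted p = 0.00475 and 0.00641), and Ddx39b, an RNA helicase gene just before H2-D1, fell to 0.709 of its WT level (adjusted p = 0.00741). The RNA gene 1110038B12Rik fell to 0.697 of its WT level (adjusted p = 0.00533).

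**Figure D4:**
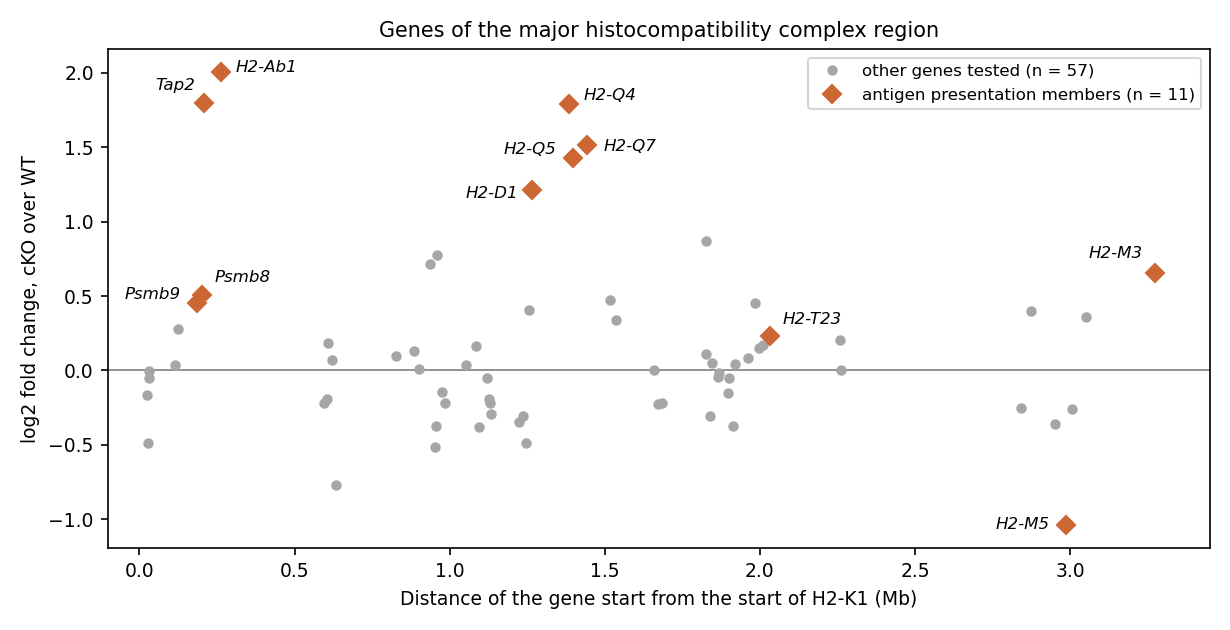
Log2 fold change, cKO over WT, of the genes tested in the MHC interval, against the distance of the gene start from that of H2-K1 in Mb, with members as orange diamonds and the 57 other genes as grey points. H2-D1 and the 3 H2-Q genes lie together above 1.2, Tap2 and H2-Ab1 lie near the left end at 1.8 and 2.01, and the median of the grey points is -0.02.

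Cells that carry class I and class II at high levels are a small part of the embryonic cortex, and in bulk RNA more cells of a type and more RNA per cell cannot be told apart. Of 18 markers of microglia and macrophages 11 have a row and were tested, 3 rose, among them Tyrobp and C1qb (1.67-fold and 1.41-fold, adjusted p = 0.015 and 0.017), and 0 fell, where 9.62% of all genes tested rose. Their summed FPKM was 89.1, 73.7 and 73.1 in WT and 98.2, 105.9 and 109.7 in cKO, a ratio of 1.33 without overlap. None of the 11 is at 0 in a group. Aif1, Csf1r, P2ry12, Trem2, Ptprc, Itgam and Adgre1 have no row in the table used here. Spi1, the macrophage lineage factor, was at 1.77 ± 0.22 FPKM across the WT libraries and 2.83 ± 0.73 FPKM in cKO (SD, n = 3; adjusted p = 0.0875), and Cx3cr1, a microglial receptor, at 2.99 ± 1.0 and 4.49 ± 0.24 FPKM (adjusted p = 0.105).

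The part of these cells in the rise of H2-Ab1, Ifi30 and the class I genes was not tested. The marker sum and B2m rose by like ratios (1.33 and 1.40), and the heavy chain sum by 2.65. Of 12 lymphocyte and dendritic cell markers 0 have a row. Of 6 endothelial and pericyte markers with a row 4 were tested and 0 passed, and their sums were 73.8 to 133.6 FPKM across the WT libraries and 102.5 to 130.7 across the cKO libraries. Of 9 markers of meninges and 7 of erythroid cells tested 0 passed, and across these 3 lists voom called 0 and limma gave 0 unadjusted p-values under 0.05. The meningeal and erythroid sums were 239.9 to 527.7 against 286.4 to 458.4 FPKM and 14601 to 19650 against 16643 to 24432 FPKM.

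**Figure D5:**
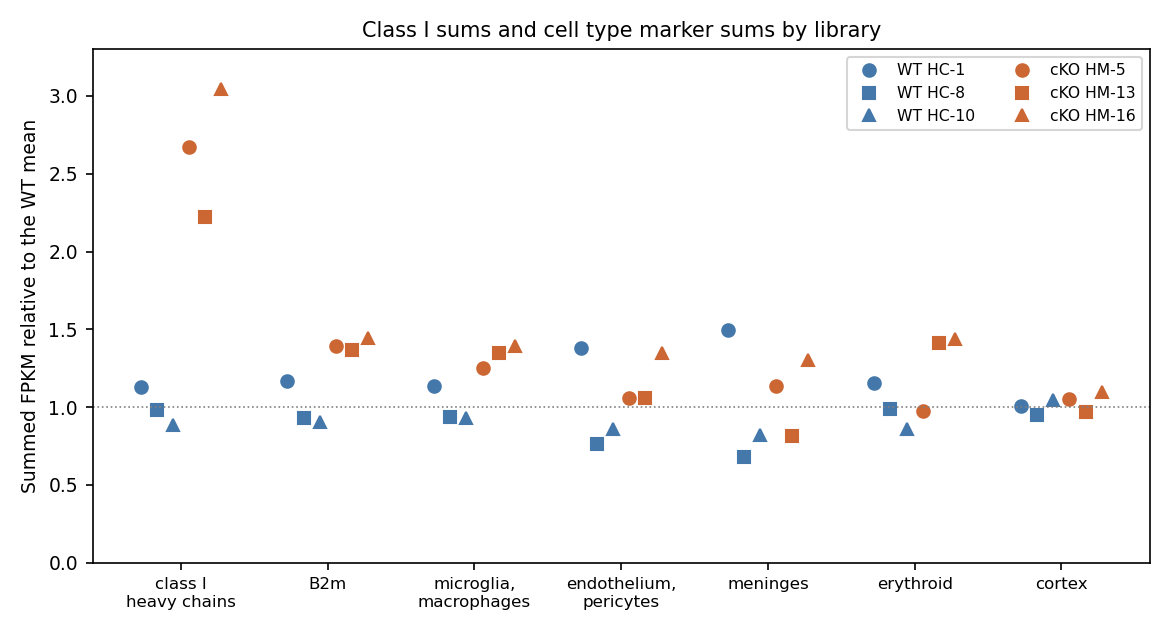
Summed FPKM of the heavy chain members, B2m and 5 lists of cell type markers in each library, divided by the WT mean, with WT in blue and cKO in orange and a symbol for each library. The heavy chain sum lies above 2 in each cKO library, B2m and the microglia and macrophage sum lie between 1.2 and 1.5 in cKO, and the other lists overlap between the groups.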

How the data were processed

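RNA sequencing of 6 cortex libraries was used. Per the submitters' processing notes bcl2fastq 1.8.4, STAR 2.5.4b and featureCounts 1.6.1 were used with build mm10, and DESeq2 1.22.1 in R 3.4.1. Annotation and row filters were not given in the sources used here. A deposited table of 14379 rows holds, per the file headers, FPKM per library, and the authors' mean normalized count (a signal over libraries), log2 fold change, p-value and FDR per row. HC was read as control and HM as mutant from the letters of the column names, which carry no replicate number of the labels and no batch. Multiplying each FPKM by mean normalized count over mean FPKM and by the library's size factor gave whole reads for 100% of values within 0.001 of a read.

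The members and lists were chosen with earlier results of these data known. With 1 row per symbol, genes that reached an FPKM of 1 in 3 or more libraries entered limma 3.58.1 (R 4.3.3) as log2(FPKM + 1) (intensity trend, group as the only term, Benjamini-Hochberg adjustment over 9359 genes, threshold 0.05). Fold changes on this scale understate low genes; ratios of mean FPKM carry no pseudocount. The fit was tested on simulated data. Named are all members with a row, Hdac1 and Hdac2, and from each wider list or the MHC interval up to 4 called genes, or up to 2 with the smallest p where none was called. H2-DMa, H2-T24, Mx2, Oas1b, Spi1, Cx3cr1, Tmem119, Cd68 and genes named from the plots were added after their values were seen. Alternatives were other pseudocounts, no filter, other scalings, voom on the recovered reads, no trend, summed rows and leaving out each library. Gene positions are from GENCODE on GRCm38, promoters from RefSeq on GRCm38.p6, and shared stretches were counted in GENCODE transcripts. Promoters of H2-Q5, Tap2, Nlrc5 and H2-Ab1 were not used here. Values of some single marker genes are not reported here.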

Additional observations from a re-analysis of the deposited data

How the results depend on the processing

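Of 465 member values compared under an alternative, 0 changed direction among members called in either fit; Ifit2 and Ifnar1, never called, changed sign in some. Scaled by library totals, which count the Rn45s reads of HM-13 and move the median log2 fold change of all genes to -0.09, the genes called went from 1685 to 497, the members called higher from 13 to 7 and those on the interferon side from 5 to 1. Leaving out each library in turn gave 511 to 1773 genes called, 3 to 11 members higher, 2 to 7 on the antigen presentation side and 1 to 4 on the interferon side; the lowest counts came without HM-16 or HM-5. Without a cKO library the genes that are low in WT miss the filter, so the fits were repeated with the tested genes held fixed, an alternative chosen after seeing the data: 595 to 1869 genes, 7 to 12 members higher (7 without HM-16), 6 to 8 on the antigen presentation side and 1 to 4 on the interferon side. H2-M5 was called lower in each fit. Where an arm has 2 libraries the spread is pooled over both groups. No paired analysis was possible because the columns carry no replicate number of the labels. Psmb8, Psmb9, Nlrc5, Isg15, Irf9, H2-Q5 and H2-M5, and Tap2 in WT, rest on few reads, which limits what could be detected.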

Other observations

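A list around nucleic acid sensing, which also holds adaptors, helicases and nuclease subunits, gave calls in the lower direction. Of its 22 genes 10 have a row and 7 were tested. Of these 0 rose, 4 fell and 3 did not pass, where 8.39% of all genes tested fell. Aim2, a sensor of DNA in the cytosol, went from 9.25, 8.85 and 9.32 FPKM in WT to 4.67, 6.22 and 5.57 FPKM in cKO (limma adjusted p = 0.0105) and kept its call without each library. Rnaseh2b, a subunit of the enzyme that removes RNA from DNA, fell from 74.3 ± 12.3 to 51.0 ± 6.35 FPKM (SD, n = 3; adjusted p = 0.0347), and the helicase genes Dhx9 and Dhx36 fell to 0.832 and 0.874 of their WT level (adjusted p = 0.0156 and 0.0466). Rnaseh2b lost its call in 4, Dhx9 in 3 and Dhx36 in each of the 6 fits that left out a library.

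A list of 6 genes of the standard proteasome and its regulators was set beside the inducible subunits. All 6 were tested, and 0 rose and 2 fell, where 9.62% of all genes tested rose and 8.39% fell. Psmb6 fell from 462.4, 397.1 and 452.8 FPKM to 312.3, 360.7 and 336.9 FPKM (log2 fold change -0.38, adjusted p = 0.0224), and Psmb7 from 167.4, 140.5 and 169.4 FPKM to 121.0, 128.4 and 133.8 FPKM (log2 fold change -0.31, adjusted p = 0.0437). They lost their calls in 4 and 5 of 6 fits that left out a library. Psmb5 was at 31.1 FPKM in HC-1, 5.05 and 5.39 FPKM in the other WT libraries and 20.03 to 25.2 FPKM in cKO, so HC-1 stands apart there (adjusted p = 0.214).

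Of 20 relatives and feedback genes of Jak and Stat signalling 8 were tested, and 2 rose and 1 fell. Among all genes tested 9.62% rose and 8.39% fell. The Stat inhibitor Pias1 and the interferon lambda receptor Ifnlr1 rose (1.24-fold and 1.65-fold, limma adjusted p = 0.0476 and 0.0477). The phosphatase Ptpn2 fell to 0.713 of its WT level (adjusted p = 0.0496). With 1 library left out, Pias1 and Ptpn2 passed in 0 of 6 fits and Ifnlr1 in 1 of 6. None of these 3 calls held without the filter on low values (adjusted p = 0.0552, 0.0552 and 0.0695), where 0 of the 20 were called.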
